A study of Mus musculus with 6 samples.

Results

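The interleukin-1 (IL-1) family and its receptors were followed through 6 libraries of mouse embryonic fibroblasts. The members were chosen by name and not by their values: the ligands and antagonist Il1a, Il1b, Il1rn, Il18 and Il33, and the receptors Il1r1, Il1r2, Il1rap, Il1rl1 and Il1rl2. Each name matched 1 locus that carried no other gene name, which gave 10 loci of the 39495 in the files. The cells were isolated from Stc1+/+ (wild type) or Stc1-/- (knockout) mice, and the labels give all of them a C57BL/6 background. They were grown in DMEM with serum and antibiotics, and the labels name no added agent. There were 3 libraries of each genotype, written WT1 to WT3 and KO1 to KO3 below. The sources used here do not give how the Stc1 allele was made, the age of the embryos or whether each library had its own embryo. The spread behind each p-value is therefore that between libraries, which may be technical.

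IL-1 alpha and IL-1 beta are alarm cytokines that signal through the same receptor, Il1r1, paired with the accessory chain Il1rap. Il1rn encodes the receptor antagonist, which occupies Il1r1 without signalling, and Il1r2 is a decoy receptor that binds IL-1 without passing the signal on. The accessory chain also serves the receptors Il1rl1 (ST2, the receptor of IL-33) and Il1rl2 (the receptor of the IL-36 cytokines), while IL-18 uses its own receptor pair. Signalling runs through the adaptor MyD88 and the IRAK kinases to NF-kB and MAP kinases, and in fibroblasts it is known to induce chemokines, colony-stimulating factors, prostaglandin synthesis and matrix metalloproteinases.

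The start regions of the members are shown where a reader may want them beside the levels. Il1a and Il1b are shown because the ratio of these neighbouring genes varied across libraries, from 0.834 in WT3 to 46.3 in WT1. Their levels were still correlated over the 6 libraries (Pearson r = 0.77 on the log2 scale). Il1rap is shown because it held the most matches to the NF-kB letters. The pair of Il1rl1 starts is shown because the deposited value of that gene adds up transcripts from both. In mice the upstream Il1rl1 start is known mainly from mast cells and other blood cells and the downstream one from fibroblasts. All 10 members matched the RefSeq start table (GRCm38.p6, the same assembly as mm10), with 15 start windows in all. Each sequence below is the 250 bases before the annotated start, read 5′ to 3′ on the strand of the gene. Il1a is at chr2:129309973-129310222 on the minus strand, Il1b at chr2:129371140-129371389 on the minus strand and Il1rap at chr16:26581455-26581704 on the plus strand. The Il1rl1 windows are at chr1:40429320-40429569 on the plus strand and at chr1:40439379-40439628 on the plus strand. Capitals mark letters that match NF-kB (GGG, any 5 letters, CC, both strands), AP-1 (TGANTCA, both strands) or a TATA box (TATAAA, strand of the gene), and overlapping matches run together.
Il1a: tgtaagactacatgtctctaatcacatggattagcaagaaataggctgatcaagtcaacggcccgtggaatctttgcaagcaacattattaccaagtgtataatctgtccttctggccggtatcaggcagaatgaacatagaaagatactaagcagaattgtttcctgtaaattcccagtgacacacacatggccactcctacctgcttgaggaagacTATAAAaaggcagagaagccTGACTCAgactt
Il1b: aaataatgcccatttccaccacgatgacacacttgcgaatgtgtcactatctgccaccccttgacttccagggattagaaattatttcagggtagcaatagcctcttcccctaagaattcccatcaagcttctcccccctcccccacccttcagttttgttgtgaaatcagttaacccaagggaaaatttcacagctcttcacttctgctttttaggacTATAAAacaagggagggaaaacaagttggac
Il1rap: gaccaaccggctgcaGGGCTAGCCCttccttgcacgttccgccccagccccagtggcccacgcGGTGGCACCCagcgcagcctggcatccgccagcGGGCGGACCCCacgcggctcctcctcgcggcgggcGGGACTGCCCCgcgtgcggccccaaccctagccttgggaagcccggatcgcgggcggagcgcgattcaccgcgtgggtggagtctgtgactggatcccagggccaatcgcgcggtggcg
Il1rl1 upstream start: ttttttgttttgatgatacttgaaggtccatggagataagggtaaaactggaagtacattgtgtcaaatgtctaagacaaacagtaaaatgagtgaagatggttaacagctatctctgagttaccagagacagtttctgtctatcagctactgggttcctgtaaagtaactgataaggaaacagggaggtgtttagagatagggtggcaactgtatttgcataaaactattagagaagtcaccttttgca
Il1rl1 downstream start: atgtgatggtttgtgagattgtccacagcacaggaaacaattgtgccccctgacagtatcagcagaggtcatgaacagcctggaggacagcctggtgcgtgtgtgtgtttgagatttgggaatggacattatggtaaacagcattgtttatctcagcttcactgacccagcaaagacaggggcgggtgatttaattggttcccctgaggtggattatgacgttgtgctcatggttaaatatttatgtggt

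Il1a and Il1b each held a TATA match, from base -32 and base -31 before the start. The Il1a window also held an AP-1 match from base -12 to base -6, and the Il1b window held no AP-1 or NF-kB letters. Il1rap held NF-kB letters in 4 separate stretches, and neither Il1rl1 window held any of these 3 motifs. Among the 15 member windows, 4 held NF-kB letters, 2 AP-1 letters and 4 a TATA match. Among all 32851 windows of the same length in the table, 45.8% held the NF-kB letters, 6.75% the AP-1 letters and 7.59% the TATA letters. Searches on both strands for C/EBP (TTNNGNAA) and PU.1 (GAGGAA), whose matches are not in capitals, found the former in 11 of the 15 member windows, both Il1rl1 windows among them, and in 36.8% of all windows. PU.1 letters were in 1 of 15 and in 23.3% of all windows. A match is a description of the letters only, and 2 of the 15 windows, both of Il1rn, overlap and share a C/EBP match.

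The libraries held 42509592 to 71488701 estimated fragments in wild type and 21882092 to 44552311 in knockout. Stc1 was at 31.8, 6.82 and 7.62 CPM in WT1 to WT3 and had 6, 0 and 0 fragments in KO1 to KO3. CPM are fragment counts scaled to the effective library size and are used to compare 1 gene between libraries. FPKM, which also divide by transcript length, are used to compare genes. Fibroblast markers were present in every library. By the sign of the log2 fold change 7 of the 9 were lower in knockout, beside 8712 of all 15673 genes tested. Dcn (log2 fold change 1.14) and Pdgfra (0.06) were above 0. The groups of Vim, Col1a1 and Col1a2 did not overlap, beside 5.44% of all genes lower in this sense. Vim was at 3320, 4140 and 3130 CPM in WT1 to WT3 and at 2200, 2400 and 2950 CPM in KO1 to KO3, and Col1a1 at 3110, 12000 and 3410 CPM against 829, 2080 and 2320 CPM (edgeR adjusted p = 0.763 for both). The libraries also differed in transcripts of another cell type. The 13 macrophage markers summed to 219, 1260 and 10600 CPM in WT1 to WT3 and to 1070, 299 and 326 CPM in KO1 to KO3. None of the 13 was at 0 in all libraries. All 13 had log2 fold changes below 0, and the genotypes overlapped for each. For these markers edgeR called 0 and DESeq2 called 4, beside 0.328% of the genes with a DESeq2 adjusted p. Of 10 mast cell and basophil markers, Cpa3, Fcer1a and Prss34 had no fragment in any library. Mcpt8, a basophil protease gene, was at 21.0, 26.0 and 11.7 CPM in WT1 to WT3 and at 103, 87.7 and 76.5 CPM in KO1 to KO3. Its groups did not overlap, beside 5.18% of all genes higher in this sense (log2 fold change 2.19, edgeR adjusted p = 0.763). Of the 2 genes tested from this marker list, Mcpt8 and Kit, edgeR called 0 and DESeq2 called 1. The part of these marker differences in the results below was not tested. In such bulk RNA, fewer cells of a type and less RNA per cell cannot be told apart.

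The receptor chains other than the decoy Il1r2, and the antagonist Il1rn, had higher median levels than the agonist cytokines Il1a, Il1b, Il18 and Il33. By median FPKM over the 6 libraries the order was Il1rl1 (44.4 to 245 FPKM), Il1rn (49.0), Il1rap (28.6), Il1r1 (10.6), Il1rl2 (7.46), Il1a (7.06), Il33 (1.89), Il18 (1.47), Il1b (0.557) and Il1r2 (0.484). Il1rl1 was the highest member in 5 of 6 libraries, and in WT3 Il1rn was higher. Each gene's range over libraries overlapped that of the next gene in the order. Within libraries, Il1r1 was above Il1rl2 in 6 of 6, and every other pair of neighbours changed places in at least 1 library. Il1rl2 was above Il1a in only 2 of 6 libraries, so their order by median does not hold within most libraries. The range was narrowest for Il1r1, Il33 and Il1rl2, whose highest library stood 2.37, 2.47 and 2.89 times above the lowest in FPKM. It was widest for Il1a, at 1250 times.

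**Figure D1:**
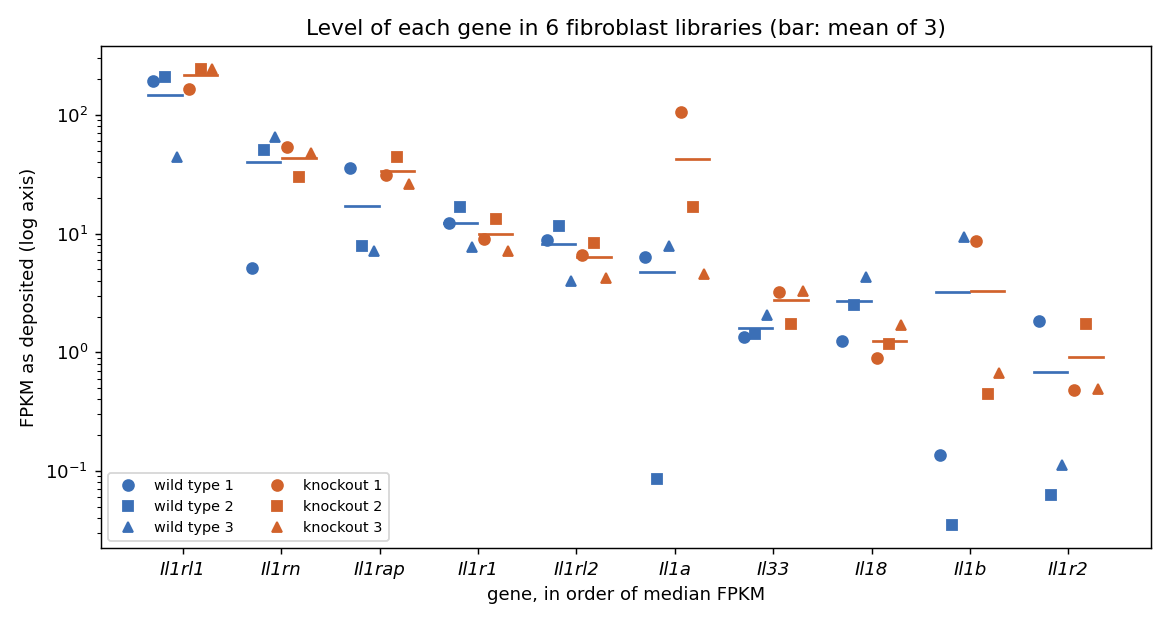
FPKM as deposited (log axis) of the 10 genes in each of 3 wild-type and 3 knockout libraries, with the mean of each genotype as a bar. Il1rl1 lay between 44.4 and 245 FPKM, while Il1a ran from 0.0854 to 106 FPKM and the genotypes overlapped for every gene.

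None of the 10 members passed the test between the genotypes, nor did Stc1 itself (log2 fold change -7.72, edgeR adjusted p = 0.763; q = 3.67e-06 in the authors' deposited table). edgeR's quasi-likelihood test tested all 10 and called 0 of them at an adjusted p under 0.05, against 0.0% of the 15673 genes tested. At an unadjusted p under 0.05 there were 0 of 10 members, beside 3.87% of all genes. DESeq2 called 0 of the 8 members for which it gave a p, beside 0.328% of the genes with an adjusted p, and 2 of the 8, Il1a and Il18, had an unadjusted p under 0.05 there. The 3 knockout values lay wholly above or below the 3 wild-type values for 0 of 10 members, beside 10.6% of all genes. The log2 fold change was above 0 for 7 members and below 0 for 3, with a median of 0.33, while over all genes 44.4% were above 0 with a median of -0.05. The intervals were wide, and a change in either direction larger than 2-fold lay within the 95% interval for Il1a, Il1b, Il1rn and Il1r2.

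**Figure D2:**
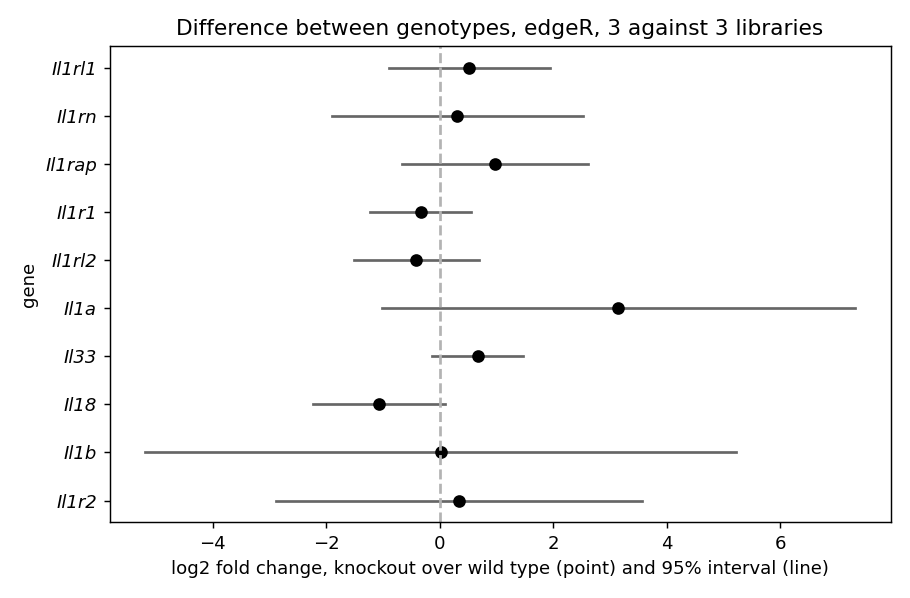
Fold change, knockout against wild type, on the log2 scale (point) with its 95% interval (line) for each gene, from edgeR on 3 against 3 libraries. Every interval crosses 0, from the narrow one of Il33 (-0.13 to 1.47) to that of Il1b (-5.19 to 5.22).

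Il1a, which encodes the form of IL-1 that is active without processing and is released from damaged cells, had the largest fitted change and the widest range of the members. It spans chr2:129299610-129309972 on the minus strand (mm10); all 10 members are annotated as protein coding. It stood at 15.1, 0.187 and 17.9 CPM in WT1 to WT3 and at 247, 38.6 and 10.2 CPM in KO1 to KO3. KO1 was the highest, WT2 the lowest with 8 fragments, and KO3 lay below WT1 and WT3. The knockout mean was 98.5 ± 129 CPM against 11.1 ± 9.54 CPM in wild type (SD, n = 3 each). Knockout over wild type gave a log2 fold change of 3.15 (standard error, SE, 1.70, edgeR adjusted p = 0.763). Without KO1 it was 1.14, and without WT2, WT3 and KO1, the libraries richest in macrophage markers, it was 0.69. The latter fit leaves WT1 as the only wild-type library and drops the libraries highest and lowest in Il1a. The part of macrophages in the Il1a level was not tested. The authors' deposited table gives Il1a a log2 fold change of 3.17 with a q-value of 0.131, the lowest q among the 7 members read from it. A locus on the opposite strand, Gm14023, overlaps Il1a and had at most 20.1 fragments in any library. The kit keeps strand, but the sources used here do not give how strand was counted.

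Il1b, the secreted form that caspase-1 cuts to its active size, lies on the same strand of chromosome 2 as Il1a, with 54.6 kb between the genes, and was rare in 4 of 6 libraries. It had 11, 1 and 682 fragments in WT1 to WT3, or 0.156, 0.0234 and 14.1 CPM. KO1 to KO3 had 278, 19 and 45 fragments, or 13.1, 0.510 and 0.998 CPM. A library of each genotype was thus high, WT3 and KO1, and the other 4 were at 0.998 CPM or less. The exact 95% Poisson interval of WT2 was 0.000593 to 0.13 CPM and covers counting error only. The knockout mean was 4.86 ± 7.11 CPM against 4.76 ± 8.10 CPM in wild type (SD, n = 3 each), for a log2 fold change of 0.02 (SE 2.12, edgeR adjusted p = 0.999). It was -2.65 without KO1 and 5.61 without WT3, and 2.26 without WT2, WT3 and KO1, the libraries richest in macrophage markers (edgeR adjusted p = 1). The 2 libraries with the most Il1b had macrophage marker sums of 10600 and 1070 CPM, while WT2 had a sum of 1260 CPM with 1 Il1b fragment; the part of these cells in the Il1b level was not tested.

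Il1rn, the antagonist (chr2:24336853-24351867, plus strand), was low in a single library. It stood at 6.31, 61.9 and 102 CPM in WT1 to WT3 and at 105, 43.0 and 64.3 CPM in KO1 to KO3. WT1, which was the lowest, also had the lowest macrophage marker sum, 219 CPM, and KO2, the next lowest, had 299 CPM. KO3, with a sum of 326 CPM, had more Il1rn than WT2, with a sum of 1260 CPM. The part of macrophages was not tested. The log2 fold change was 0.31 (SE 0.90, edgeR adjusted p = 0.918) and was -0.21 without WT1 and 1.05 without WT3. Without WT2, WT3 and KO1, which leaves WT1 as the only wild-type library, it was 3.09 (edgeR adjusted p = 0.83). Relative to the agonists, the FPKM of Il1rn divided by that of Il1a plus Il1b was 0.798, 421 and 3.80 in WT1 to WT3 and 0.469, 1.72 and 9.16 in KO1 to KO3. The agonists exceeded the antagonist in WT1 and KO1, and the antagonist was higher in the other 4 libraries.

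Il18 and Il33 were low in every library and had the smallest unadjusted edgeR p-values of the 10 members with all libraries, neither below 0.05. DESeq2 gave Il18 an unadjusted p of 0.0413, with a smaller one for Il1a (0.0209). Il18, an interferon-gamma inducing cytokine (chr9:50554838-50582009, plus strand), stood at 1.44, 2.37 and 4.16 CPM in WT1 to WT3 and at 0.939, 1.29 and 1.55 CPM in KO1 to KO3. Only WT1 and KO3 overlapped, and the log2 fold change was -1.07 (SE 0.48, edgeR adjusted p = 0.763). Without WT3, the library with the most macrophage markers, it was -0.59. Without WT2, WT3 and KO1, the libraries richest in those markers, it was -0.02. That fit leaves WT1, the wild-type library lowest in Il18, as the only one of its genotype. The part of macrophages in the Il18 level was not tested. Bco2, which overlaps the start of Il18 on the opposite strand, had 5 to 40 fragments where Il18 had 20 to 201; whether fragments of one were counted for the other was not tested.

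Il33, a nuclear alarmin and the ligand of Il1rl1 (chr19:29925114-29960718, plus strand), stood at 3.86, 4.10 and 6.13 CPM in wild type and at 9.16, 5.20 and 8.07 CPM in knockout. WT3 lay above KO2 and below the other 2 knockout libraries. The log2 fold change of Il33 was 0.67 (SE 0.33, edgeR adjusted p = 0.763), and it was positive in all 15 alternatives. Without the 3 libraries richest in macrophage markers, which leaves WT1 as the only wild-type library, it was 0.78.

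Il1rl1 was the most abundant member. The gene, whose membrane form carries the IL-33 signal and whose soluble form captures IL-33, stood at 637, 651 and 141 CPM in WT1 to WT3 and at 494, 794 and 761 CPM in KO1 to KO3. WT3 was low and the other 5 libraries lay within 494 to 794 CPM. In those 5 libraries Il1rl1 ranked between place 234 and place 371 by FPKM among the 36812 loci kept, and in WT3 it ranked at place 1991. Knockout over wild type gave a log2 fold change of 0.52 (SE 0.58, edgeR adjusted p = 0.791), which was 0.08 without WT3, the library with 10600 CPM of macrophage markers. The authors' software marked the Il1rl1 value of KO2 as FAIL, and the log2 fold change was 0.40 without that library. Il1rl1 exceeded its ligand Il33 in FPKM by 143, 145 and 21.8 times in WT1 to WT3 and by 51.0, 141 and 73.1 times in KO1 to KO3. Soluble and membrane forms are counted in the same locus and cannot be told apart here.

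Il1r1, the signalling IL-1 receptor, varied little between libraries. It stood at 76.0, 100 and 46.1 CPM in WT1 to WT3 and at 54.5, 80.1 and 42.1 CPM in KO1 to KO3. The log2 fold change was -0.33 (SE 0.36, 95% interval -1.22 to 0.55, edgeR adjusted p = 0.787). Il1rl2, the IL-36 receptor and its neighbour on chromosome 1, followed the same order of libraries almost throughout, at 43.4, 57.1 and 19.8 CPM in wild type and 32.9, 38.6 and 19.0 CPM in knockout. The FPKM of Il1r1 stood between 1.37 and 1.93 times that of Il1rl2 in all 6 libraries. For Il1rl2 the log2 fold change was -0.41 (SE 0.45, edgeR adjusted p = 0.789).

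The accessory chain Il1rap (chr16:26581704-26730117, plus strand) stood at 164, 40.6 and 31.7 CPM in WT1 to WT3 and at 153, 199 and 114 CPM in KO1 to KO3. WT2 and WT3 were low, and WT1 lay among the knockout libraries. The knockout mean was 155 ± 42.4 CPM against 78.8 ± 74.0 CPM in wild type (SD, n = 3 each), for a log2 fold change of 0.98 (SE 0.67, edgeR adjusted p = 0.763). It was 2.10 without WT1 (adjusted p = 0.117) and -0.07 without WT2, WT3 and KO1. Set against its partner, Il1rap had 2.97, 0.463 and 0.915 times the FPKM of Il1r1 in WT1 to WT3 and 3.43, 3.33 and 3.66 times in KO1 to KO3. The 2 low libraries were again WT2 and WT3, with macrophage marker sums of 1260 and 10600 CPM; KO1, with a sum of 1070 CPM, was not low, and the part of these cells was not tested.

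The decoy receptor Il1r2 was rare and uneven. It had 197, 4 and 8 fragments in WT1 to WT3, or 2.79, 0.0937 and 0.166 CPM, and 15, 93 and 31 fragments in KO1 to KO3, or 0.705, 2.49 and 0.688 CPM. WT1 and KO2 were the high libraries, and these were also the top libraries for Il1rap. Its FPKM was at most 0.152 times that of Il1r1 in any library. Knockout over wild type gave a log2 fold change of 0.34 (SE 1.31, edgeR adjusted p = 0.944), which was 3.30 without WT1 and -0.82 without WT2, WT3 and KO1. The opposite-strand locus AC161534.1, which overlaps Il1r2, had 0 to 6 fragments.

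**Figure D3:**
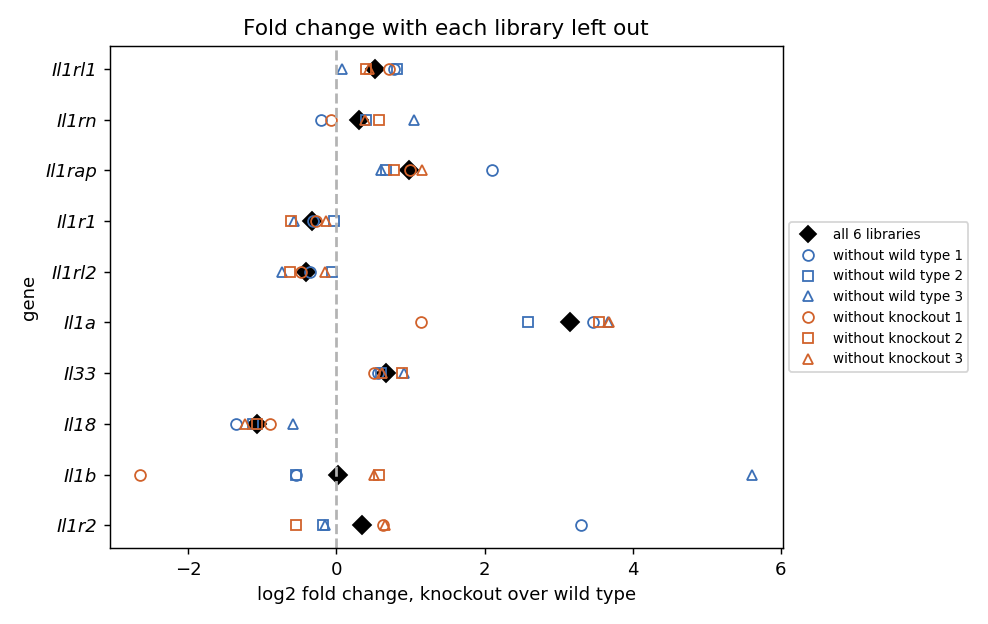
Fold change, knockout against wild type, on the log2 scale for each gene with all 6 libraries (black diamond) and with each library left out (open symbols). Il33 stayed between 0.50 and 0.91, whereas Il1b moved from -2.65 without KO1 to 5.61 without WT3.

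The receptor genes lie side by side on the plus strand of chromosome 1 (mm10), in the order Il1r2, Il1r1, Il1rl2, Il1rl1, Il18r1 and Il18rap, over 467.1 kb. Il1rl1 spans 40429570 to 40465415 and the next gene, Il18r1, the ligand-binding chain of the IL-18 receptor, starts at 40465552. Il1rl1 had 44.4 to 245 FPKM, while Il18r1 had 0 to 8 fragments in any library and at most 0.0322 FPKM. Il18rap, the partner chain that needs Il18r1 to bind IL-18, was present at 7.39, 2.41 and 0.596 FPKM in WT1 to WT3 and at 4.74, 8.04 and 10.3 FPKM in KO1 to KO3. The cells thus held transcripts of 1 chain of the IL-18 receptor and hardly any of the other. WT3 was the lowest library for both Il18rap and Il1rl1.

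**Figure D4:**
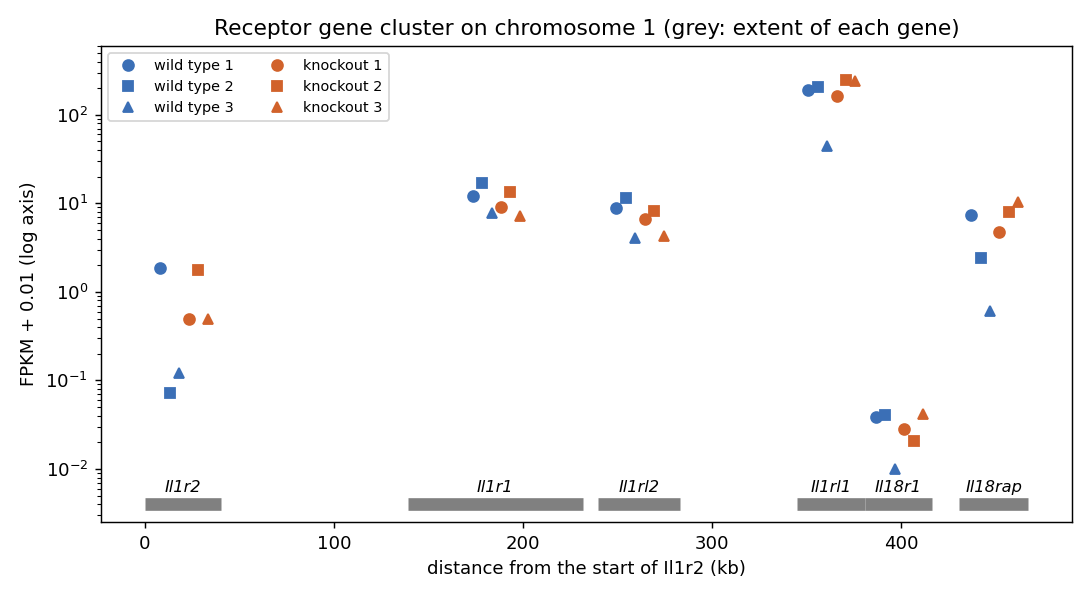
FPKM + 0.01 (log axis) of the 6 receptor genes of chromosome 1 in each library against the distance from the start of Il1r2 in kb; grey bars show the extent of each gene. Il18r1, directly after Il1rl1, was at most 0.0322 FPKM, while Il1rl1 reached 245 FPKM.

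Most family genes outside the 10 members had few or no fragments. Of 11 such genes, 4 had enough fragments to be tested, and edgeR called 0 of them (0 at an unadjusted p under 0.05, and 0 by DESeq2). The 7 that were not tested had at most 32 fragments in any library, among them the IL-36 antagonist gene Il1f5 and the inhibitory receptor Sigirr. In CPM the groups of Il1f6 and Il1f9, which encode IL-36 alpha and gamma and lie near Il1rn, did not overlap. The share of all genes higher in this sense was 5.18%. Both passed the count filter largely through the knockout libraries, where they were high, so this is no support for a difference. Il1f6 had 16, 0 and 4 fragments in wild type and 21, 16 and 21 in knockout (log2 fold change 2.47, SE 1.01, edgeR adjusted p = 0.763). In CPM this was 0.227, 0 and 0.0828 against 0.986, 0.429 and 0.466, so WT1 and KO2, equal in fragments, were parted only by scaling to depth. Il1f9 had 10, 0 and 35 fragments in wild type and 54, 35 and 62 in knockout (log2 fold change 2.47, SE 1.25, edgeR adjusted p = 0.763). Here WT3 and KO2 were equal in fragments, at 0.724 and 0.939 CPM. Sigirr, below the filter, did not overlap in the other direction, with 14, 21 and 32 fragments in wild type and 3, 1 and 6 in knockout. Il18bp, the secreted IL-18 trap, was steady at 39.8 to 48.8 CPM.

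The signalling chain below the receptors was expressed in all libraries, at 1090 to 1500 CPM summed over its genes. Of 19 tested genes, 10 had log2 fold changes above 0 and 9 below, with a median of 0.05, and edgeR called 0 (0 at an unadjusted p under 0.05, and 0 by DESeq2). In CPM the groups of 1 gene did not overlap, beside 5.44% of all genes lower in this sense. This was Tab2, an adaptor of the kinase TAK1, at 148, 199 and 209 CPM in wild type and 142, 148 and 131 CPM in knockout. Its nearest libraries, WT1 and KO2, were equal to 3 digits, and its FPKM overlapped (30.4 to 44.5 in wild type, 29.1 to 31.7 in knockout). Its log2 fold change was -0.40 (SE 0.17, edgeR adjusted p = 0.763). Irak2, a kinase of the receptor complex, averaged 57.2 ± 10.3 CPM in KO1 to KO3 against 44.2 ± 8.08 CPM in WT1 to WT3, and the ubiquitin ligase gene Peli1 21.7 ± 2.47 against 26.7 ± 4.90 CPM (SD, n = 3 each).

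Among 12 genes that process or release IL-1, 3 had log2 fold changes above 0 and 9 below, with a median of -0.15, and edgeR called 0 (1 at an unadjusted p under 0.05, Nlrp1b, beside 2.27% of all genes in this direction, and 0 by DESeq2). The inflammasome genes were uneven. Casp1, which cuts IL-1 beta and IL-18, stood at 1.02, 4.52 and 56.8 CPM in WT1 to WT3 and at 10.5, 2.04 and 1.71 CPM in KO1 to KO3. The inflammasome sensor gene Nlrp1b stood at 0.0849, 6.00 and 29.1 CPM in wild type and at 0.799, 0.134 and 0.133 CPM in knockout, and the adaptor gene Pycard at 2.08, 6.70 and 46.0 against 7.14, 1.90 and 1.89 CPM. For all 3, WT3 was the highest library and held 10600 CPM of macrophage markers; the part of macrophages was not tested. Gsdmd, the pore former through which IL-1 beta leaves cells, stood at 47.5, 28.0 and 52.1 CPM in wild type and 70.7, 58.2 and 56.1 CPM in knockout (log2 fold change 0.54, SE 0.26, edgeR adjusted p = 0.763). Capn1, of the calpain protease family that cuts IL-1 alpha, stood at 129, 73.4 and 98.1 CPM in wild type and at 130, 128 and 129 CPM in knockout.

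Genes that fibroblasts are known to switch on in answer to IL-1 had log2 fold changes above 0 in 24 of 24 cases, with a median of 1.86, beside 44.4% of all genes and a median of -0.05. edgeR called 0 of them, and 4 had an unadjusted p under 0.05 (beside 1.6% of all genes in this direction). DESeq2 called 0 of the 21 for which it gave a p. The groups of 11 of the 24 did not overlap, beside 5.18% of all genes in this direction. The list was written with earlier results of these data known, so it is not independent evidence of a direction. Mmp13, a collagenase, stood at 182, 11.3 and 118 CPM in WT1 to WT3 and at 1220, 844 and 515 CPM in KO1 to KO3. Lif stood at 141, 18.2 and 21.7 against 427, 276 and 297 CPM, the prostaglandin synthase gene Ptgs2 at 1200, 297 and 313 against 3220, 2220 and 1010 CPM, and the granulocyte growth factor gene Csf3 at 3.30, 0.445 and 4.04 against 83.0, 7.78 and 3.88 CPM. Each of these 4 had an edgeR adjusted p of 0.763. Without KO1 the median was 1.20, with 23 of 24 above 0, and without WT1 it was 3.07. Without WT2, WT3 and KO1 it was 0.32, with 20 of 24 above 0, beside 52.0% of all genes in that fit.

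The response genes as a sum and Il1a were highest and lowest in the same libraries. Summed over the 24 genes, the level was 6500, 787 and 2240 CPM in WT1 to WT3 and 15100, 10700 and 6760 CPM in KO1 to KO3. KO1 was the highest library for 19 of the 24 genes and for Il1a. WT2 was the lowest for 21 of the 24 genes and for Il1a, with 8 fragments. Over all genes tested, KO1 was the highest library for 11.5% and WT2 the lowest for 28.6%. Among the 10 members, KO1 was the highest library for 3 (Il1a, Il1rn and Il33) and WT2 the lowest for 3 (Il1a, Il1b and Il1r2). Between these extremes the orders differed: Il1a was higher in WT3 than in KO3, and the summed level was higher in KO3. Il1b did not follow the same order, since KO2 had 10700 CPM of the response genes and 19 Il1b fragments.

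**Figure D5:**
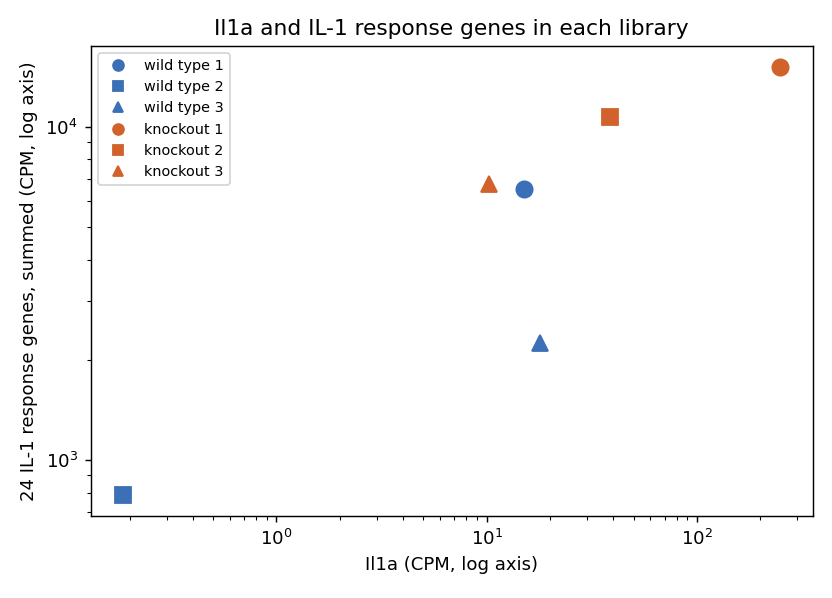
Summed CPM of 24 IL-1 response genes against the CPM of Il1a in each library, both on log axes. WT2 sits lowest on both (787 and 0.187 CPM) and KO1 highest (15100 and 247 CPM).

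Genes whose log2 CPM followed a member most closely over the 6 libraries were sought among the 11409 genes whose log2 CPM averaged 2 or more. The first-ranked genes had Pearson r from 0.98 to 0.997 for the 10 members. They were Nab1 for Il1a (r = 0.997), Plekha8 for Il1b (0.995), Fastkd2 for Il1rn (0.98), Zfp398 for Il18 (0.994) and Slc7a2 for Il33 (0.98). For the receptors they were Gm14005 for Il1r1 (0.987), the shared locus of Zfp526 and 9130221H12Rik for Il1r2 (0.991), Rhoc for Il1rap (0.996), Gm12602 for Il1rl1 (0.995) and Rps4y2 for Il1rl2 (0.997). These values are descriptions only. Each is the highest r over all genes compared, from 6 libraries that differ in depth and composition, so it is no measure of a link. They need not mean a change of like size: Nab1 ran from 65.7 to 141 CPM where Il1a ran from 0.187 to 247 CPM.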

How the data were processed

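Polyadenylated RNA of 3 wild-type and 3 Stc1 knockout fibroblast samples was sequenced with a stranded kit, per the labels' protocols. The build is mm10, and the tools named, without role or order, are Cuffdiff 2.0.1, TopHat2 2.0.6 and CASAVA 1.8.2, per the submitters' processing notes. Per the file headers, the authors deposited for each library and locus an estimated count of fragments (an expected count), an FPKM value and a status. The authors' deposited table adds a p-value and a q-value per gene; 7 of the 10 members were read from it.

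Expected counts were rounded to whole numbers (24.2% of those above 0 were not whole, with a tolerance of 1e-06). Loci without a gene name (2667, holding 0.507% to 0.555% of fragments) and 16 loci marked HIDATA in a library, the status for too many fragments, were left out, among them Fn1 and the shared locus of Lyz2 and Lyz1; loci marked FAIL were kept. The remaining 36812 loci were filtered with filterByExpr and tested with edgeR 4.0.16 in R 4.3.3 (TMM, robust quasi-likelihood F test, Benjamini-Hochberg adjustment over 15673 genes, threshold 0.05). Standard errors are the log2 fold change divided by the square root of F. Alternatives used DESeq2 1.42.0, limma 3.58.1 (voom, or log2 of FPKM plus 1 or 0.1), other scalings and filters, and fewer libraries.

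The members and gene lists were chosen with earlier results of these data known. Named were all members, up to 4 genes per list with the smallest p, the genes most like each member, cell type markers and Stc1; other list genes were named after their values were seen. No pair of libraries was counted as 1 sample.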

Additional observations from a re-analysis of the deposited data

How the results depend on the processing

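The count of members called was 0 in the edgeR test with all libraries and in all 15 alternatives. Over all genes, edgeR called 0 of 15673; DESeq2 called 61 and limma on log2(FPKM + 0.1) called 1, and the other 13 alternatives called 0, leaving out each library in turn included (range 0 to 0). No paired analysis was possible because the replicate numbers were given in accession order and pair nothing. Il1a, Il18, Il33, Il1r1, Il1rl1 and Il1rl2 kept the sign of their log2 fold change wherever they were tested. With 1 library left out, the log2 fold change of Il1b ran from -2.65 to 5.61, that of Il1rn from -0.21 to 1.05 and that of Il1r2 from -0.55 to 3.30, so their signs turned. With WT2, WT3 and KO1 left out, it was -0.82 for Il1r2, -0.07 for Il1rap, 3.09 for Il1rn and 2.26 for Il1b (against 0.31 and 0.02 with all libraries for the latter pair); that fit takes the lone wild-type library to vary as the knockout ones do. Without WT1, 3 members and 2939 of all genes had an unadjusted p under 0.05, beside 0 and 607 with all libraries. The cause of these changes was not tested. Leaving out loci marked FAIL, an alternative chosen after seeing the data, removed Il1rl1 from the test. Depth limits Il1b and Il1r2, which had 1 and 4 fragments in WT2.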
